A study of Caenorhabditis elegans with 6 samples.

Results

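The genes described here are 6 constitutive and organelle chaperone genes of Caenorhabditis elegans, which were chosen by gene name and compartment: hsp-1 and daf-21 of the cytosol, hsp-3 and hsp-4 of the endoplasmic reticulum, and hsp-6 and hsp-60 of the mitochondria. All 6 were found among the 5739 genes listed. The 6 libraries came from L4 stage worms grown at 20 degrees, 3 from alg-2(ok304) mutants and 3 from wild type. Worms of both groups carried, as a single-copy insertion, a tagged ribosomal protein RPL-18 under the neuronal promoter rgef-1p, together with a histone-GFP reporter. RNA was taken from polysomes pulled down from whole worms through the tag, so a level here is an amount of RNA in the pull-down and not in the whole animal. ALG-2 is one of the Argonaute proteins that carry microRNAs in this worm. The labels name the mutant group as alg-2(ok304), while the headers of its columns name an ALG1 knockout, and the strain list gives an HA tag for the mutant strain and a FLAG tag for the wild-type strain although FLAG beads were used. The groups are called here by their labels.

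Chaperones bind unfolded stretches of other proteins and help them fold, assemble or cross membranes. HSP70 proteins bind and release such stretches with the help of J-domain partners, HSP90 acts late on signalling proteins and receptors, and HSP60 forms a chamber in which a protein folds in isolation. Each compartment has its own set, and in C. elegans the genes hsp-4 and hsp-6 and hsp-60 are widely used as reporters of the unfolded protein responses of the endoplasmic reticulum and of the mitochondria.

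The values in the library columns were fitted reads. In every gene above 0, libraries 2 and 3 of alg-2(ok304) held 1.17 and 2.24 times the value of library 1, and libraries 2 and 3 of wild type held 1.397 and 1.52 times the value of library 1. The columns therefore held no spread between replicates, no test could be run, and no p-value or standard deviation is given. "Higher" and "lower" describe these values only. Whether the library values of the groups overlap follows from the fixed factors and the group levels, and says nothing of replicate spread. The fitted reads summed to between 4769250 and 10706566 in the alg-2(ok304) libraries and to between 11656552 and 17692391 in the wild-type libraries, of which 6 ribosomal RNA genes took 85.1% in alg-2(ok304) and 97.9% in wild type. Outside ribosomal RNA the totals were 712356 to 1599179 in alg-2(ok304) and 244236 to 370703 in wild type. A group sum near 1 stood close to 1 counted read, so the members' sums, which ran up to 178 fitted reads, were small.

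Among the 6 genes hsp-60 stood apart. Per kilobase of exon it had the highest level of the 6 in alg-2(ok304), while in wild type daf-21, hsp-6 and hsp-1 stood above it. hsp-6, which encodes the other mitochondrial chaperone, had the smallest ratio of fitted reads of alg-2(ok304) to wild type, before any allowance for depth. hsp-4 had reads in alg-2(ok304) only, and hsp-3, its close relative, had few in either group.

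HSP-60, the mitochondrial chamber chaperone, is encoded by hsp-60 (WBGene00002025; WBcel235, chromosome III, 1619742 to 1625803, plus strand). It had 40.2, 47.2 and 90.2 fitted reads in the alg-2(ok304) libraries, against 3.09, 4.32 and 4.69 in the wild-type libraries. The library values did not overlap, and the sums were 178 in alg-2(ok304) and 12.11 in wild type, a ratio of 14.7.

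HSP-6, the mitochondrial HSP70, is encoded by hsp-6 (WBGene00002010; chromosome V, 4824124 to 4826760, minus strand). It had 12.96, 15.2 and 29.1 fitted reads in the alg-2(ok304) libraries, against 11.01, 15.4 and 16.7 in the wild-type libraries. The library values overlapped, and the sums of 57.3 in alg-2(ok304) and 43.1 in wild type gave a ratio of 1.33.

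DAF-21, the cytosolic HSP90 whose gene is called hsp-90 in the current annotation, is encoded by daf-21 (WBGene00000915; chromosome V, 14684918 to 14688545, plus strand). It had 35.8, 42.0 and 80.3 fitted reads in the alg-2(ok304) libraries, against 25.1, 35.1 and 38.1 in the wild-type libraries. The library values overlapped here too, with sums of 158 in alg-2(ok304) and 98.4 in wild type and a ratio of 1.61.

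HSP-1, the constitutive HSP70 of the cytosol and nucleus, is encoded by hsp-1 (WBGene00002005; chromosome IV, 17278959 to 17281330, plus strand). It had 8.62, 10.1 and 19.3 fitted reads in the alg-2(ok304) libraries, against 5.15, 7.19 and 7.81 in the wild-type libraries. The library values did not overlap, and the ratio of the sums, 38.1 in alg-2(ok304) and 20.1 in wild type, was 1.89.

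HSP-3 and HSP-4 are the worm's BiP proteins, the HSP70s of the endoplasmic reticulum. hsp-3 (WBGene00002007; chromosome X, 6089028 to 6092124, minus strand) had 3.97, 4.66 and 8.91 fitted reads in the alg-2(ok304) libraries, against 0.716, 0.999 and 1.09 in the wild-type libraries. Its sums were 17.5 in alg-2(ok304) and 2.80 in wild type, a ratio of 6.26 that rested on about 3 wild-type reads. hsp-4 (WBGene00002008; chromosome II, 7350112 to 7352645, minus strand) had 1.35, 1.59 and 3.04 fitted reads in the alg-2(ok304) libraries, a sum of 5.98, and was listed at 0 in all 3 wild-type libraries, so no fold is given for it.

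**Figure D1:**
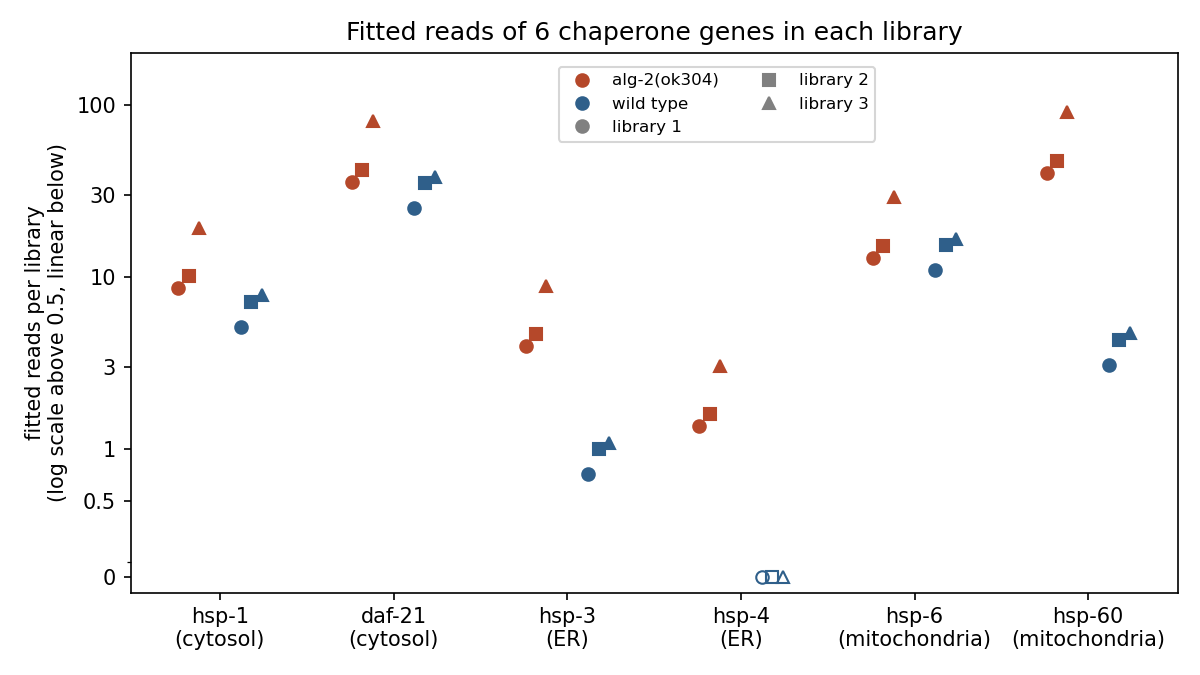
Fitted reads of the 6 chaperone genes in each library (y axis, log scale above 0.5 and linear below), with 1 point per library, alg-2(ok304) left of wild type, and open symbols for values listed at 0. hsp-60 shows the widest gap, with 40.2 to 90.2 fitted reads in alg-2(ok304) and 3.09 to 4.69 in wild type, while the points of hsp-6 and of daf-21 overlap, with the spacing of the points in a group fixed by the fit.

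These ratios include the difference in depth between the groups, for which a scale had to be chosen. Over the 2653 genes outside ribosomal RNA that were above 0 in both groups, the median log2 ratio of alg-2(ok304) to wild type was 1.93. This value was taken as no change, and log2 fold changes are given relative to it, on the scale of log2(fitted reads + 0.5). On this scale hsp-60 was 1.90 higher and hsp-3 was 0.63 higher in alg-2(ok304), while the log2 fold change was -0.98 for hsp-1, -1.24 for daf-21 and -1.49 for hsp-6. Among the 6 genes 2 were at least 2-fold higher, hsp-60 and, through the pseudocount, hsp-4, where the background over the genes above 0 in at least 1 group was 46%. Brought to the wild-type scale, the alg-2(ok304) sum of hsp-4 was only 1.57 fitted reads, too few to tell its wild-type value of 0 from a difference in depth. The 2 genes at least 2-fold lower were hsp-6 and daf-21, where the background was 21.4%. Among genes above 0 in both groups the backgrounds were 26.1% at least 2-fold higher and 27.5% at least 2-fold lower, against 1 and 2 of the 5 members. With so few members these counts do not set them apart from the other genes.

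The spread over all genes was wide. Relative to the median, the log2 ratios of the 2653 genes ran from -3.08 to 2.23 once the lowest 10% and the highest 10% of them were set aside. The ratio of hsp-60 stood at the percentile 86.4 of all ratios, that of hsp-3 at 65.7, and those of hsp-1, daf-21 and hsp-6 at 30.8, 27.2 and 24.0. None of the 5 members above 0 in both groups lay outside that range.

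**Figure D2:**
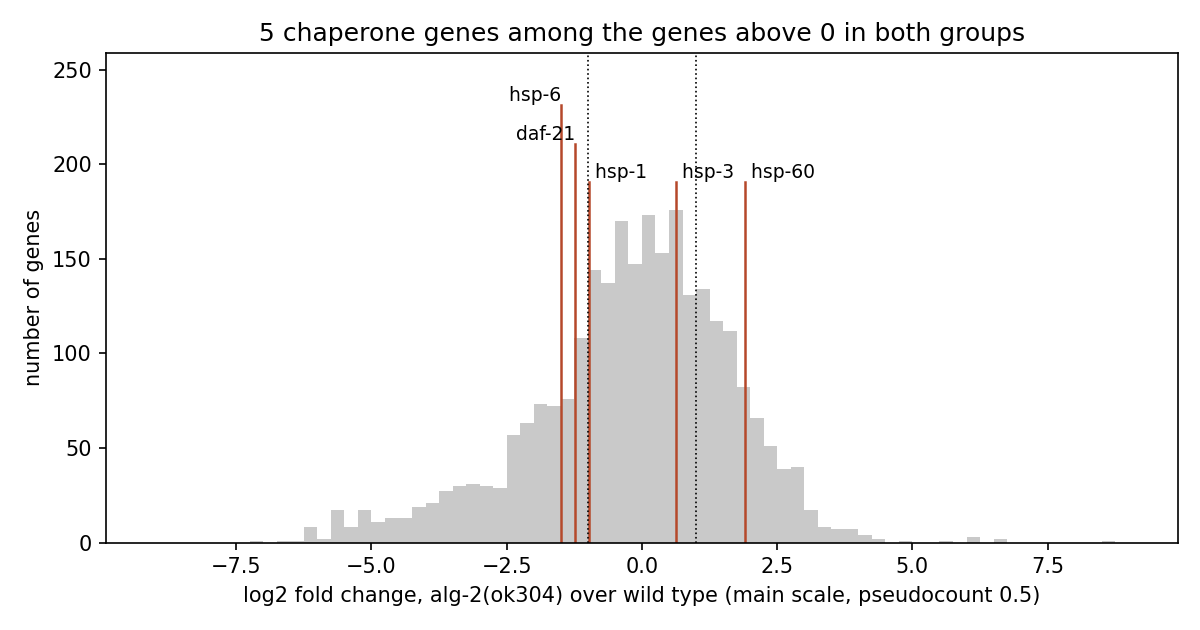
Distribution of the log2 ratio of alg-2(ok304) to wild type, relative to the median, over the genes above 0 in both groups (x axis, log2; y axis, genes), with the 5 members marked. hsp-60 stands at the percentile 86.4 and hsp-6 at 24.0, both inside the bulk of the genes.

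Where a member lay close to a 2-fold limit, a few reads decided the call. hsp-1 would have counted as 2-fold lower at a wild-type sum of 20.5, against the 20.1 it had. hsp-3 would have counted as 2-fold higher at a wild-type sum of 2.05, against 2.80. hsp-60 would have stayed at least 2-fold higher up to a wild-type sum of 23.05, against its 12.11.

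Differences between members do not depend on the scale between the groups. hsp-60 had 3.10 fitted reads for each of hsp-6 in alg-2(ok304), against 0.281 in wild type, an 11.04-fold difference and 3.46 on the log2 scale. Both proteins work in the mitochondrial matrix, where HSP-6 draws in and folds imported proteins and HSP-60 takes over a part of them. Against daf-21 the ratio of hsp-60 was 1.12 in alg-2(ok304) and 0.123 in wild type, a difference of 3.19 in log2. Against hsp-1 the difference was 2.96, and against hsp-3 it was 1.23.

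Of the other members, hsp-1, daf-21 and hsp-6 lay close together. The log2 ratio of hsp-1 exceeded that of daf-21 by 0.23 and that of hsp-6 by 0.51, and that of daf-21 exceeded that of hsp-6 by 0.27. These 3 genes, for 2 cytosolic chaperones and 1 mitochondrial one, therefore lay within 0.51 in log2 of each other. The log2 ratio of hsp-3 exceeded that of hsp-1 by 1.73, that of daf-21 by 1.96 and that of hsp-6 by 2.24, and was thus nearer to that of hsp-60 than to theirs.

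Levels of different genes were compared per kilobase of exon. In alg-2(ok304) the order was hsp-60 at 83.7 fitted reads per kilobase, daf-21 at 67.0, hsp-6 at 23.3, hsp-1 at 18.4, hsp-3 at 6.58 and hsp-4 at 2.68. In wild type it was daf-21 at 41.7, hsp-6 at 17.5, hsp-1 at 9.72, hsp-60 at 5.71, hsp-3 at 1.05 and hsp-4 at 0. Without a spread between replicates it cannot be said which neighbours in these orders differ. Apart from hsp-60, which stood above daf-21, hsp-6 and hsp-1 in alg-2(ok304) and below them in wild type, the order of the genes was the same in both groups.

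The share of each gene among the 6 members, per kilobase, is also free of the scale. hsp-60 made up 41.5% in alg-2(ok304) and 7.54% in wild type, and hsp-6 made up 11.5% in alg-2(ok304) and 23.1% in wild type. The mitochondrial pair together thus held 53.1% in alg-2(ok304) and 30.7% in wild type. daf-21 held 33.2% in alg-2(ok304) and 55.1% in wild type, and hsp-1 held 9.11% in alg-2(ok304) and 12.84% in wild type. The endoplasmic reticulum pair held the smallest share of the 3 compartments, at 4.59% in alg-2(ok304) and 1.39% in wild type.

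**Figure D3:**
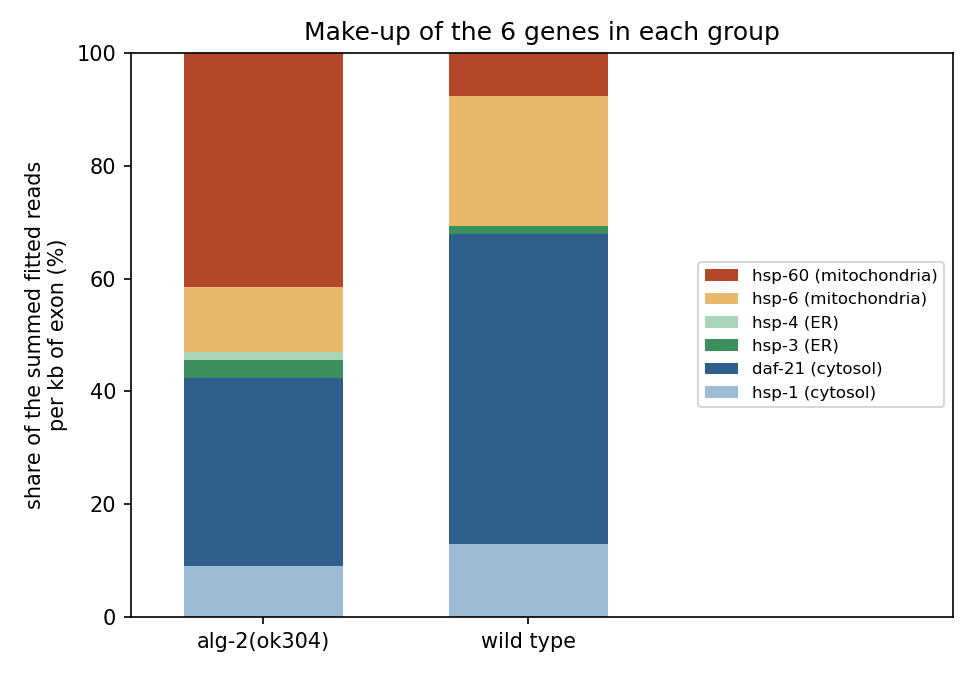
Share of each gene in the fitted reads per kilobase of the 6 members (percent), in alg-2(ok304) and in wild type. hsp-60 takes 41.5% in alg-2(ok304) and 7.54% in wild type, and daf-21 takes 33.2% in alg-2(ok304) and 55.1% in wild type.

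Among the 4780 genes outside ribosomal RNA that were above 0 in at least 1 group, daf-21 ranked at the percentile 93.2 by level in alg-2(ok304) and 95.7 in wild type. hsp-60 ranked at 93.6 in alg-2(ok304) and 79.1 in wild type, hsp-6 at 84.6 in alg-2(ok304) and 90.9 in wild type, and hsp-1 at 78.9 in alg-2(ok304) and 84.1 in wild type. hsp-3 had nearly the same rank in both groups, with 61.4 in alg-2(ok304) and 61.1 in wild type.

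The direction given for a member rests on the scale. With the totals of all listed genes, ribosomal RNA included, every log2 fold change was 3.04 larger, 6 of 6 members counted as at least 2-fold higher, and 3992 genes were higher and 439 lower, against 2202 and 1026 with the median ratio. With totals that left out ribosomal RNA and the genes within 2 kb of it, every log2 fold change was 0.73 smaller, hsp-3 stood at -0.01, and 1673 genes were higher and 1364 lower. hsp-60 was at least 2-fold higher on every scale tried, between 1.18 and 4.93 in log2. The log2 fold changes of hsp-1, hsp-6 and daf-21 were below 0 on every scale except the totals of all listed genes.

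**Figure D4:**
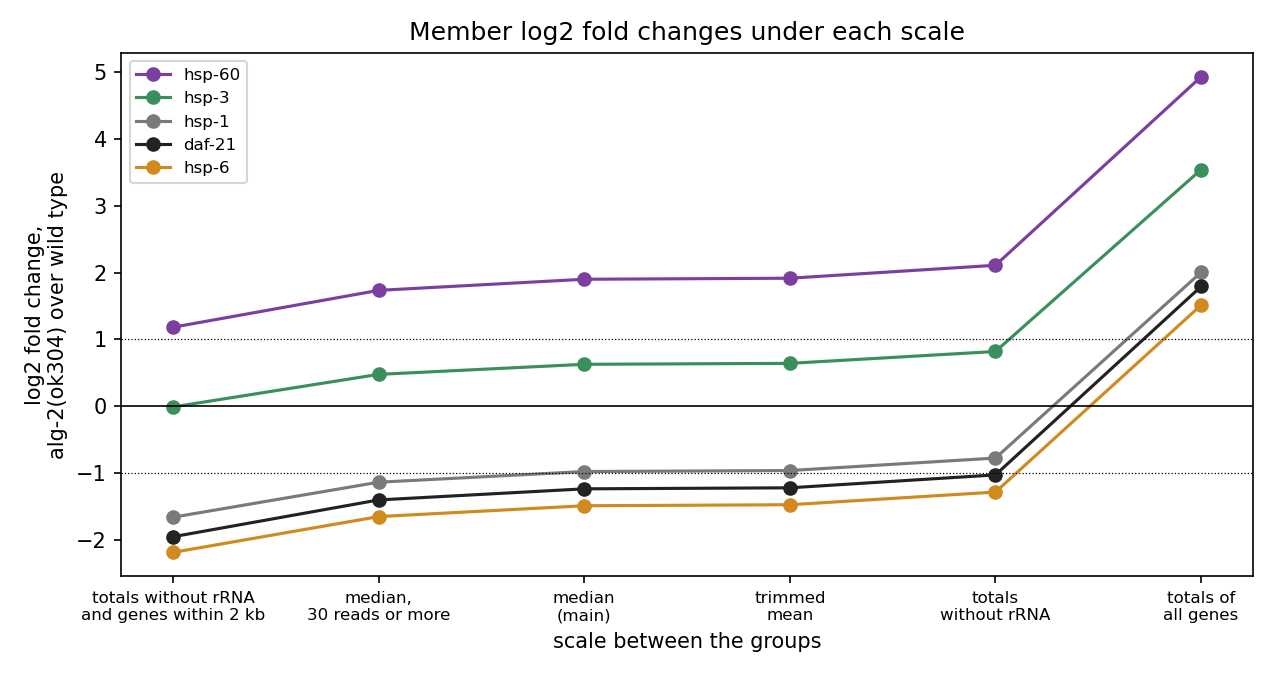
Log2 fold change of alg-2(ok304) over wild type (y axis) for the 5 members above 0 in both groups on each scale between the groups, with dotted lines at 2-fold. hsp-60 stays between 1.18 and 4.93 on all scales and the lines of the other members cross 0 on at least 1 of them.

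The surroundings of the genes bear on how their reads were counted, since use of the strand was not stated. hsp-3 and hsp-4 overlapped no annotated gene. daf-21 overlapped C47E8.4 on the opposite strand by 568 bases, of which 4 were exonic in both, and C47E8.4 was not among the genes listed. hsp-1 holds the small nucleolar RNA gene F26D10.24 within an intron, with no exonic overlap. hsp-60 overlapped no gene, and its closest neighbour on the left, 812 bases away on the opposite strand, was Y22D7AL.10, the gene for the small HSP10 lid that closes the HSP60 chamber. Y22D7AL.10 had 54.2 fitted reads in alg-2(ok304) and 10.5 in wild type, a log2 fold change of 0.42. The ratio of hsp-60 to Y22D7AL.10 in fitted reads was 3.27 in alg-2(ok304) and 1.16 in wild type. Per kilobase of exon it was 0.862 in alg-2(ok304) and 0.304 in wild type, so the level of Y22D7AL.10 stood above that of hsp-60 in both groups. On the scale used here both genes were higher in alg-2(ok304), the chamber gene by more than the lid gene.

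The genes nearest to each member by their pair of levels were found over the 2 groups. For hsp-1 these were fhod-1 (38.5 fitted reads in alg-2(ok304), 20.5 in wild type), which encodes a formin that acts on actin, and brp-1 (38.6 in alg-2(ok304), 19.5 in wild type). For daf-21 they were ilys-5 (145 in alg-2(ok304), 90.7 in wild type), an invertebrate lysozyme gene, and ZK354.7 (159 in alg-2(ok304), 118.9 in wild type). For hsp-6 they were Y76B12C.4 (58.3 in alg-2(ok304), 41.9 in wild type) and the collagen gene col-41 (57.7 in alg-2(ok304), 45.01 in wild type). For hsp-3 they were F56A11.6 (17.9 in alg-2(ok304), 2.81 in wild type) and Y17D7B.10 (17.4 in alg-2(ok304), 2.73 in wild type). For hsp-4 they were scc-1 (6.01 in alg-2(ok304), listed at 0 in wild type), a cohesin gene, and pod-1 (5.93 in alg-2(ok304), listed at 0 in wild type), a coronin gene.

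For hsp-60 the nearest genes were ndua-13 (160 fitted reads in alg-2(ok304), 10.5 in wild type), for a subunit of mitochondrial complex I, at a distance of 0.245 in log2, and gldi-3 (201 in alg-2(ok304), 13.9 in wild type), at 0.258. Those of daf-21 lay at 0.168 and 0.272, and those of the other members within 0.063. With 2 groups a match in level has no more than 2 values behind it.

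The chaperone network around the 6 genes was read from 5 lists of 78 symbols, of which 58 were listed. Of these, 37 were above 0 in both groups, 15 in alg-2(ok304) only and 3 in wild type only. Of the 55 above 0 in at least 1 group, 24 were at least 2-fold higher, beside a background of 46% of all genes, and 15 at least 2-fold lower, beside a background of 21.4%. The same 2 backgrounds apply to the counts of each list below, none of which was tested. The median log2 fold change over the 37 was -0.36, beside -0.98 over the 5 members and -0.00 over all 2659 genes above 0 in both groups. With the genes at 0 in 1 group included through the pseudocount, the median was 0.69 over the 55, -0.17 over the 6 members and 0.76 over all 4786 genes, so its sign for the network depended on them.

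Of the 21 cytosolic chaperones and co-chaperones above 0 in at least 1 group, 12 were at least 2-fold higher and 7 lower (backgrounds 46% and 21.4%). Of the 13 above 0 in both groups, 7 were higher and 4 lower, beside backgrounds of 26.1% and 27.5% over such genes. The other higher ones were listed at 0 in wild type and the other lower ones at 0 in alg-2(ok304). The median log2 fold change over the 13 was 1.63. hip-1, for a partner of HSP70, had 126.9 fitted reads in alg-2(ok304) and 4.88 in wild type (log2 fold change 2.65), and daf-41, for the HSP90 partner p23, had 78.0 in alg-2(ok304) and 4.99 in wild type (1.93). hsp-110, for an exchange factor of HSP70, had 80.6 in alg-2(ok304) and was listed at 0 in wild type. On this scale the log2 fold changes of hip-1 and daf-41 were thus above 0, while those of hsp-1 and daf-21 were below 0. Other genes of the list went either way. bag-1 had 5.05 in alg-2(ok304) and 60.9 in wild type (-5.07), and unc-45 had 15.5 in alg-2(ok304) and 0.98 in wild type (1.63). Both were named after their values were seen. Another HSP90 partner gene, ahsa-1, named after its values were seen, had 12.7 in alg-2(ok304) and 3.33 in wild type (-0.00), and cdc-37, named in the same way, was listed at 0 in alg-2(ok304) and had 2.90 in wild type. cct-7, for a subunit of the cytosolic chamber chaperone, had 26.9 in alg-2(ok304) and 74.7 in wild type (-3.32).

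Subunits of that chamber, which is built from 8 different proteins in fixed proportion, had unlike log2 fold changes. Of the 7 listed, 5 were above 0 in both groups, with log2 fold changes from -4.27 for cct-1 to 2.08 for cct-5. These genes were singled out after their values were seen. On the same measure the range over the 5 chaperone members, 3.39 in log2 between hsp-60 and hsp-6, was smaller than that of these cct genes.

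The small heat shock proteins hold unfolded proteins without using ATP. Of the 8 above 0 in at least 1 group, 4 were at least 2-fold higher and 1 lower (backgrounds 46% and 21.4%), and all 4 of the higher ones were listed at 0 in wild type. sip-1, known for a role in embryos, had 1.18 fitted reads in alg-2(ok304) and 27.3 in wild type (log2 fold change -5.10), hsp-25 had 22.8 in alg-2(ok304) and hsp-12.1 had 11.4 in alg-2(ok304), both listed at 0 in wild type, and hsp-17 had 15.6 in alg-2(ok304) and 2.84 in wild type (0.46). The symbols hsp-16.1 and hsp-16.48 each cover a pair of near-identical genes whose reads cannot be told apart.

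Of the 10 listed genes for folding in the endoplasmic reticulum, 3 were at least 2-fold higher and 3 lower (backgrounds 46% and 21.4%). Of the 9 above 0 in both groups, 2 were higher and 3 lower, beside backgrounds of 26.1% and 27.5% over such genes. The other higher one, dnj-7, was listed at 0 in wild type. The median log2 fold change over the 9 was -0.60. The calreticulin gene crt-1 had 476 fitted reads in alg-2(ok304) and 243 in wild type (log2 fold change -0.96). The protein disulfide isomerase genes differed among themselves, with 134 in alg-2(ok304) and 12.21 in wild type for pdi-3 (1.49), 42.9 in alg-2(ok304) and 78.4 in wild type for pdi-2 (-2.75), and 37.03 in alg-2(ok304) and 40.9 in wild type for pdi-1 (-2.02).

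Of the 8 mitochondrial chaperones and proteases above 0 in at least 1 group, 2 were at least 2-fold higher, both listed at 0 in wild type, and 2 lower (backgrounds 46% and 21.4%). The median log2 fold change was 0.57 over these 8 and -0.17 over the 6 above 0 in both groups, which differ in sign. The protease gene lonp-1 had 932 fitted reads in alg-2(ok304) and 822 in wild type (log2 fold change -1.75), spg-7, for a protease of the inner membrane, had 103 in alg-2(ok304) and 15.6 in wild type (0.77), and the prohibitin gene phb-1 had 34.9 in alg-2(ok304) and 15.9 in wild type (-0.76). The log2 fold change of hsp-60 was larger than that of each of the 6 mitochondrial genes above 0 in both groups.

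Of the 8 listed regulators of the stress responses, 3 were at least 2-fold higher, all of them listed at 0 in wild type, and 2 lower (backgrounds 46% and 21.4%). Of the 5 above 0 in both groups 0 were at least 2-fold higher, beside a background of 26.1% of the genes above 0 in both groups, and so few genes do not set them apart. ddl-1, which in the worm acts on HSF-1, had 77.5 fitted reads in alg-2(ok304), and xbp-1 and atf-6, regulators of the endoplasmic reticulum response, had 29.8 and 25.6 in alg-2(ok304). dve-1, a regulator of the mitochondrial response, had 36.2 in alg-2(ok304) and 22.8 in wild type (log2 fold change -1.22).

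**Figure D5:**
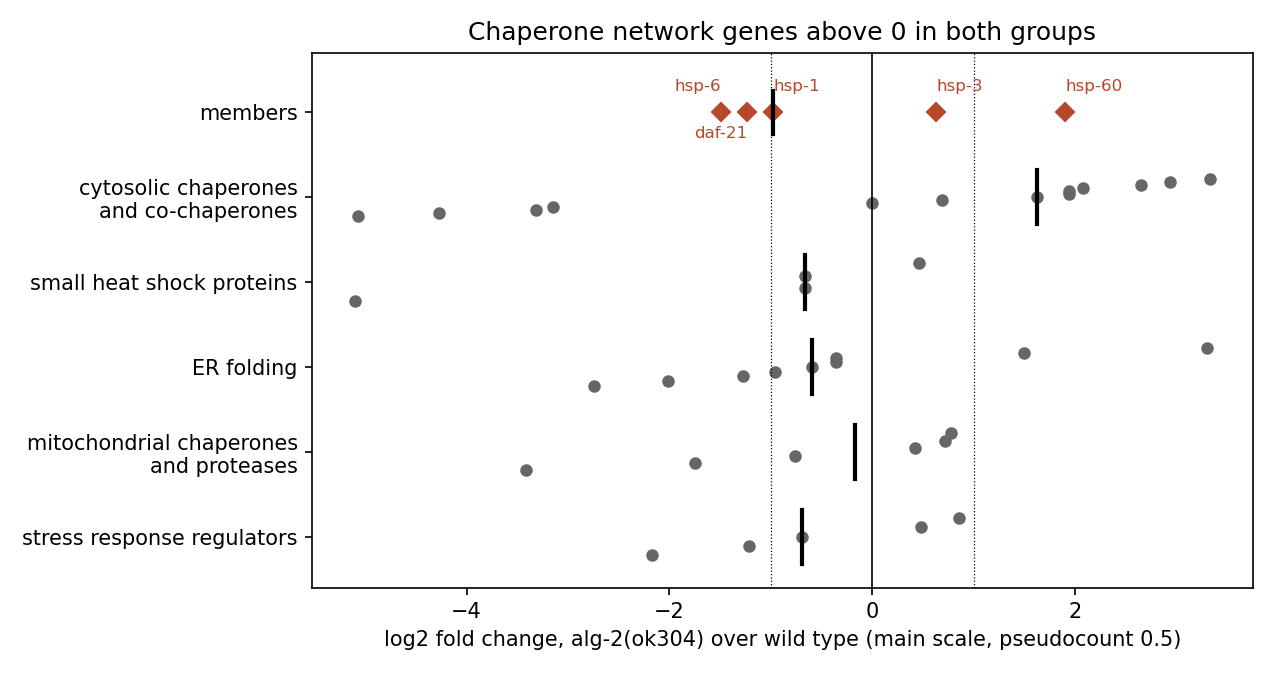
Log2 fold change of alg-2(ok304) over wild type (x axis) for the members and for the genes of the 5 network lists that were above 0 in both groups, with black bars at the medians and dotted lines at 2-fold. The members run from -1.49 for hsp-6 to 1.90 for hsp-60 and lie inside the range of the cytosolic list, from -5.07 to 3.32.

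The genes of the tag and the mutation were looked up in the same values. alg-2 itself had 11.1 fitted reads in alg-2(ok304) and 16.6 in wild type. Its log2 fold change was -2.32, and its log2 ratio before any scale was -0.58. rpl-18 had 317 in alg-2(ok304) and 66.9 in wild type, a log2 fold change of 0.31. alg-1, the gene that the column headers name, was not among the genes listed. These values do not settle which tag was present or whether the labels or the headers are right. The neuron markers were sparse, with 5 of 15 listed, rgef-1 not among them, and sums of 60.3 in alg-2(ok304) and 9.61 in wild type, where egl-21 was at 0. Those of body wall muscle, with 10 of 10 listed, summed to 1167 in alg-2(ok304) and 641 in wild type, where mup-2 was at 0. Those of hypodermis, with 9 of 10 listed, summed to 345 in alg-2(ok304) and 410 in wild type, with col-19 and wrt-10 at 0 in both groups and nhr-23 at 0 in wild type. Those of intestine, with 6 of 10 listed, summed to 670 in alg-2(ok304) and 147 in wild type, where ges-1 and ifb-2 were at 0. Those of the germline, with 5 of 10 listed, summed to 36.1 in alg-2(ok304) and 8.66 in wild type, where oma-1 was at 0. The 6 chaperone genes are used by all of these tissues, and the part of each tissue in their values was not tested. The tag was under a neuronal promoter, and how RNA of the marker genes of other tissues came into the pull-down was not tested. In such pulled-down RNA, fewer cells of a type and less RNA per cell cannot be told apart.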

How the data were processed

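RNA from RPL-18 pull-downs was prepared with a low-input kit, sequenced as read pairs, aligned with HISAT2 to WBcel235, counted with featureCounts and fitted with edgeR 3.11 by the authors; CASAVA, FastQC, cutadapt and SAMtools are also named in the submitters' processing notes. The deposited table holds, for each gene and library, a signal: the fitted reads of the authors' fit, whose columns keep 1 ratio within a group. It also holds the authors' average log2 CPM, which was used only to see whether it could set a scale and to give the members' order by it. The authors' own fold changes, p-values and false discovery rates, which it holds too, were not used. From highest to lowest average log2 CPM the members were daf-21, hsp-1, hsp-3, hsp-60, hsp-4 and hsp-6. That order differs from the order by fitted reads, where hsp-6 stood above hsp-1, hsp-3 and hsp-4 in both groups. The cause of the difference was not tested. Per-sample columns left unused numbered 0.

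The 3 fitted values of a gene in a group were added up. The log2 fold change was log2((alg-2(ok304) sum divided by the scale + 0.5) / (wild-type sum + 0.5)), with the scale set at the median ratio, and a gene was called at 2-fold. Exon lengths, positions and gene names came from Ensembl release 115 of WBcel235, which matched 5733 of the 5739 IDs. Named genes were the 6 members, for each the 2 nearest protein-coding genes by level, and the 4 highest genes of each list. For the strains alg-2, alg-1 and rpl-18 were looked up. Others are said to have been chosen after their values were seen. The 6 members and the lists were chosen with earlier results of these data known. Alternatives were other scales, pseudocounts of 1 and 5, a minimum of 10 fitted reads, no filter, a 4-fold limit and, added after seeing the data, a scale over genes with at least 30 fitted reads and a count over genes above 0 in both groups. The calculation was tested on simulated data. These held as many raised as lowered genes and no ribosomal RNA, so that test does not show which scale is right here. Python 3.11.15, numpy 2.4.6 and pandas 2.3.3 were used. Intervals are not given, since the columns are fitted values and not counted reads.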

Additional observations from a re-analysis of the deposited data

How the results depend on the processing

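No paired analysis was possible because the library columns are fitted values with 1 ratio within each group and hold no spread between replicates. For the same reason no library was left out in turn. A scale from the average log2 CPM was not run, since 953 genes at 0 in both groups have averages from -3.96 to 1.77, so that it is not an average of these values alone. The median log2 fold change of the 5 members above 0 in both groups, -0.98, was 2.01 with the totals of all listed genes, -0.78 with totals outside ribosomal RNA, -1.66 without genes within 2 kb of ribosomal RNA as well, -0.96 with a trimmed mean, -1.14 with the median over genes of at least 30 fitted reads (added after seeing the data), and -0.94 and -0.75 with pseudocounts of 1 and 5. With the totals of all listed genes hsp-6 stood at 1.51 and daf-21 at 1.79, both above 0, 6 members were higher and 0 lower, and 3992 genes were higher and 439 lower. A pseudocount of 5 left 680 genes higher and 594 lower, and 1 member higher. Genes with at least 10 fitted reads gave 1452 higher and 608 lower, and 1 member higher. At 4-fold 1349 genes were higher and 600 lower, with 0 members lower and 1 higher, hsp-4, which passed only through the pseudocount, while the call of hsp-60 was lost at 1.90. Genes above 0 in both groups (added after seeing the data) gave 694 higher, with 1 member. The cause of these shifts was not tested beyond what the scale and the pseudocount do by construction. hsp-60 kept its direction in 7 of 7 alternatives, and hsp-1, hsp-3, hsp-6 and daf-21 in 6 of 7 each. Without a pseudocount the difference between hsp-60 and hsp-6 was 3.46 in log2, and with it 3.39. Few reads limit several calls: hsp-1 stood at a wild-type sum of 20.15, against 20.48 for a call.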

Other observations

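J-domain proteins hand unfolded proteins to HSP70 and so are partners of hsp-1, hsp-3, hsp-4 and hsp-6. Beside those in the network lists, 21 further dnj genes were looked up after other values had been seen, and 12 were listed. Of the 10 above 0 in at least 1 group 1 was at least 2-fold higher and 6 were lower, beside backgrounds of 46% and 21.4% over all genes, and the median log2 fold change over the 7 above 0 in both groups was -1.002. dnj-29 had 118 fitted reads in alg-2(ok304) and 62.3 in wild type (log2 fold change -1.002), dnj-11 had 63.0 in alg-2(ok304) and 82.5 in wild type (-2.28), and dnj-17 had 40.8 in alg-2(ok304) and 12.22 in wild type (-0.18). dnj-9 had 0.864 in alg-2(ok304) and 8.31 in wild type (-3.60). These counts leave out the dnj genes of the network lists and so do not stand for the whole family. Of those, dnj-19 stood at 3.32, dnj-12 at 1.93, dnj-10 at 0.71 and dnj-20 at -1.28. dnj-7 and dnj-13 had 15.7 and 7.82 fitted reads in alg-2(ok304) and were listed at 0 in wild type. No test could be run on these values.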
